A study of Drosophila melanogaster with 42 samples.

Results

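The arrays described here compared heads of males mutant for *fruitless* (*fru*), of the allele combination *fru4-40/fruP14*, with heads of Canton S (CS) wild-type males. They are 4 of the 42 arrays of a study of the *Drosophila* sex determination hierarchy, which also examined the sexes of CS and Berlin flies, *tra* and *dsx* mutants, a second *fru* allele combination, and dissected central nervous system (CNS). The 4 arrays were chosen by the strain and source fields of their channels, which name *fru4-40/fruP14* males and CS males. Their titles name *w* Berlin as the wild type, and the channel fields were followed. Each array carried RNA of mutant heads in one dye and of CS heads in the other, about 100 heads in each sample, from independently grown flies. The mutant sample was labelled with Cy5 on replicates 1 and 2 and with Cy3 on replicates 3 and 4. The labels give an age of 0 to 24 h after eclosion, and the collection protocol narrows it to 8 to 24 h. Every value is a log2 ratio of mutant over CS for a probe of the array, so that 1 is a 2-fold higher and -1 a 2-fold lower signal in the mutant.

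*fru* encodes transcription factors with a BTB domain and zinc fingers. Transcripts from its *P1* promoter are spliced by the sex hierarchy, and only males make the male-specific proteins, FRUM, which are needed in neurons for courtship. Transcripts from the other promoters serve viability in both sexes. FRUM is present in scattered neurons of the head, so RNA of whole heads mixes these cells with the rest of the brain, the eyes, the antennae, fat body, muscle and blood cells. In such RNA, fewer cells of a type and less RNA per cell cannot be told apart.

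The comparison has limits that the study itself gives. *fru4-40/fruP14* is a null or strong loss-of-function combination for *P1* transcripts and also lacks *P2* transcripts. Both chromosomes carry deletions, so that genes next to *fru* may be present in a single copy. The mutant and CS males come from different stocks, and effects of *fru* and of other differences between the stocks cannot be told apart on these 4 arrays. A second combination, *fruw12/frucham5* in a *w* background, was compared with *w* Berlin males on 4 other head arrays with other control flies, and it serves below as the nearest comparison.

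Between 6815 and 8256 of 16320 probes had a value on an array, 41.8 to 50.6%, and the array medians lay between -0.007 and 0.027. Arrays of the same dye orientation correlated at 0.74 and 0.83 over their shared probes, and arrays of opposite orientation at 0.36 to 0.54. Of the probes, 4822 had 4 values and 2406 had 3, and these 7228 were tested, of which 6358 carry a gene symbol. A further 1251 had 2 values and were not tested. The files hold ratios, so that tissue markers could be read only by whether a probe passed the spot filter often enough to be tested. Tested were 26 neuronal and synaptic and 29 phototransduction probes. The counts were 2 of 27 for testis and accessory gland, 4 of 20 for ovary and egg shell and 0 of 3 for yolk proteins. The yolk protein probes were not without signal: *Yp1* was at 4.53 on replicate 3 and *Yp3* at 0.79 and 2.26 on replicates 2 and 3. *Yp2* had no value.

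*fru* was lower in the mutant on every array. One of its 3 probes had 4 values, -1.36, -1.27, -1.21 and -1.07 on replicates 1 to 4, with a mean of -1.23 (SE 0.0968, n = 4, adjusted p = 0.000416). The arrays were close together, and none overlapped with 0. A second *fru* probe had a value on 2 arrays, -2.76 and -1.37, and the third on none. In *fruw12/frucham5* the first probe was lower by less, -0.47 (SE 0.123, adjusted p = 0.0561), and the difference between the allele combinations was -0.75 (SE 0.156, adjusted p = 0.00966).

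At an adjusted p under 0.15, 704 probes were higher in *fru4-40/fruP14* heads (9.74% of those tested) and 756 were lower (10.5%), 20.2% in all. The changes were small for most: 90.5% of the called probes differed by less than 2-fold, and 23 by more than 4-fold, of which 17 were higher. The sign was the same on every array for 96.0% of them. With an adjusted p under 0.05 and a change over 2-fold, 74 probes were higher (1.02%) and 60 lower (0.83%), 1.85% in all. The median of all tested probes was 0.01, and the median standard error 0.118. The count of calls fell when an array was left out: without replicate 1, 2, 3 or 4 it was 1267, 830, 612 or 886. Here and below, such runs needed a value on every array kept, so fewer probes were tested and with less power. How much of the fall came from this was not tested. The count also depended on the test, with 3012 calls when a term for dye was fitted, and 581, with 5 at the stricter threshold, by the methods' own test, which does not moderate the variance.

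Genes that neighbour *fru* on chromosome arm 3R were lower in the mutant on one side of it. In the order of protein-coding genes of the current RefSeq annotation, used here without coordinates because its build is not that of the array, the 25 genes on the lower-coordinate side gave 10 tested probes with a median of -0.56, and 8 were called lower and 0 higher. The next 25 genes gave 9 tested probes with a median of -0.42 and 6 called lower, and genes 51 to 100 gave 19 with a median of -0.20 and 7 called lower. Beyond them the medians were 0.04 to 0.08 in every bin out to 400 genes, with 9.3 to 11.1% of probes called lower, against 10.5% over all probes. Both of the nearest bins were low on every array: the first had medians of -0.62, -0.72, -0.54 and -0.45 on replicates 1 to 4, and the second of -0.41, -0.47, -0.35 and -0.56. The last called probe of the stretch was that of *Alg1*, a glycosylation enzyme 73 genes from *fru* (-0.43, adjusted p = 0.0994), and the next ones, *Odj* at -0.21 and *Nnk* at -0.06, were not called. Over the first 75 genes, a span chosen after the values were seen, 21 of 30 tested probes were called lower and 0 higher.

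**Figure D1:**
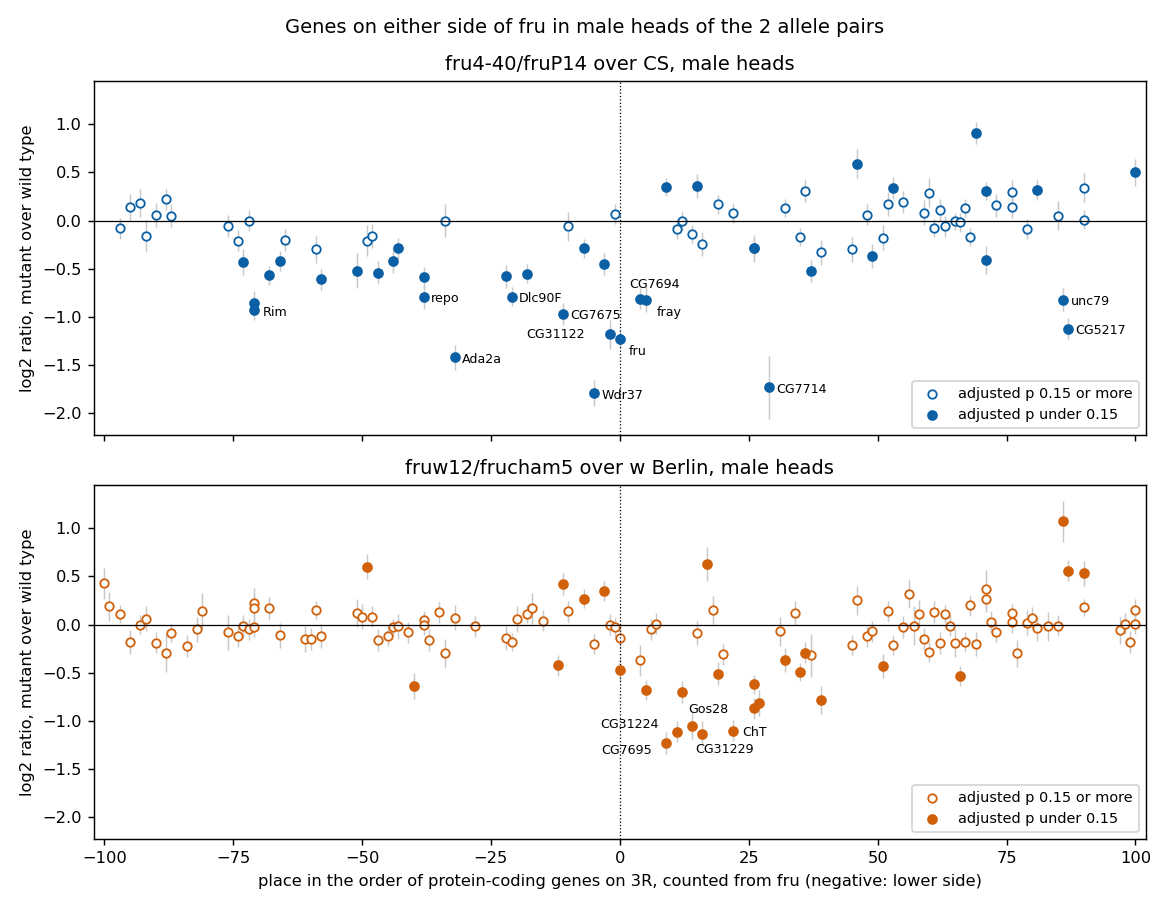
Mean log2 ratio of mutant over wild type (y axis, bars are the standard error) for probes of genes within 100 places of *fru* in the gene order of 3R (x axis), in *fru4-40/fruP14* against CS (top) and *fruw12/frucham5* against *w* Berlin (bottom); filled points had an adjusted p under 0.15. In the first, 21 of 30 probes within 75 genes on the lower side were called lower, and single probes such as *CG7714* on the upper side. In the second, 15 of 29 within 50 genes on the upper side were called lower.

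*Wdr37*, which encodes a WD40 repeat protein and lies 5 genes from *fru*, had the lowest ratios of the stretch, -2.24, -1.83, -1.42 and -1.68 (mean -1.79, SE 0.138, adjusted p = 0.000366). *CG31122*, 2 genes away, had -0.74, -0.98, -1.38 and -1.61 (mean -1.18, SE 0.15, adjusted p = 0.00327). *CG7675*, 11 genes away, had -1.20, -1.11, -0.83 and -0.76 (mean -0.97, SE 0.111, adjusted p = 0.00206). In all 3 genes every array was below -0.7, but *CG31122* was lower with the mutant in Cy3 and the other two with the mutant in Cy5. *Dlc90F*, a light chain of the dynein motor, was at -0.79 (SE 0.0979, adjusted p = 0.00296) and *PKD*, protein kinase D, at -0.55. *CG7685* was at -0.45 and *Vha100-2*, a subunit of the proton pump that acidifies vesicles, at -0.29, all of them called. *CG10864*, the immediate neighbour, was at 0.07 (SE 0.105, adjusted p = 0.725), and *CG14309* at -0.06 (adjusted p = 0.859), so that not every gene near *fru* was lower.

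Farther out on this side, *Ada2a*, a subunit of a histone acetyltransferase complex, had values on 3 arrays, -1.41, -1.66 and -1.19 (mean -1.42, SE 0.132, adjusted p = 0.00156). Its ratio was also between -1.08 and -0.84 in the 4 comparisons of *tra* and *dsx* mutant heads with CS. Both probes of *repo*, the transcription factor that marks glia, were lower, at -0.49, -0.63, -0.98 and -1.08 (mean -0.79) and at -0.50, -0.47, -0.89 and -0.53 (mean -0.59). *repo* lies 38 genes from *fru* and so inside the stretch, and the second probe was also at -0.58 to -0.19 in the *tra* and *dsx* mutants. *CG7985* was at -0.54 and *CG7183* at -0.42, both called, while *Ssdp* was at -0.16 and *CG18598* at 0.00, neither called. At the far end, 2 probes of *Rim*, a scaffold protein of the presynaptic active zone, were at -0.93 (SE 0.103, adjusted p = 0.00191) and -0.86 (SE 0.124, adjusted p = 0.00542). *cpo*, an RNA-binding protein of the nervous system, was at -0.57 and *Cbp20*, a subunit of the nuclear cap-binding complex, at -0.61, while *tinc* beside *Rim* was at 0.00 (adjusted p = 0.986). *Rim*, *cpo*, *Cbp20* and *tinc* were picked after their values were seen.

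On the upper side the order was different. The first 25 genes had a median of -0.04, with 2 probes called lower and 2 higher of 10. The 2 lower ones were the tested genes nearest to *fru*: *CG7694*, 4 genes away, at a mean of -0.81 with no array above -0.57 (SE 0.106, adjusted p = 0.00359), and *fray*, a kinase that regulates chloride cotransporters, at -0.65, -1.09 and -0.72 on 3 arrays (mean -0.82, SE 0.132, adjusted p = 0.0123). *CG7695*, 9 genes away, was higher, at 0.33, 0.43, 0.43 and 0.23 (mean 0.35, SE 0.0935, adjusted p = 0.0529). Genes 26 to 50 had a median of -0.29, with 4 of 12 called lower and 1 higher, *Sgsh*, a lysosomal sulfatase, at 0.59 (adjusted p = 0.0572), and their array medians ran from -0.13 to -0.42. The lowest of them was *CG7714*, 29 genes away, at -1.89, -2.62 and -0.67 on 3 arrays (mean -1.73, SE 0.325, adjusted p = 0.0214). Farther out, *unc79*, a regulator of a sodium leak channel, was at -0.82 and its neighbour *CG5217* at -1.12, both called.

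In *fruw12/frucham5* heads the lower side was not low and the upper side was. The first 25 genes on the lower side had a median of 0.05 with 1 of 14 probes called lower and 3 higher, and those on the upper side a median of -0.51 with 8 of 15 called lower, where 8.21% of all 9473 tested probes were called lower, 8.76% higher and 17% in either direction in that comparison. The second 25 on the upper side had a median of -0.30, with 7 of 14 called lower, close to the median of the same bin in *fru4-40/fruP14*. *CG7695* was at -1.23 there, *CG31229* at -1.13, *CG31224* at -1.11, *ChT*, the choline transporter, at -1.10, and *Gos28*, a Golgi SNARE protein, at -1.05, and none of these was called lower in *fru4-40/fruP14*. Tested between the combinations, 13 of 19 probes within 50 genes on the lower side were lower in *fru4-40/fruP14* and 0 higher, and 13 of 21 on the upper side were higher and 0 lower, while 12% of all 6821 probes tested were lower and 11.9% higher. *fray* was lower in both (-0.68 in *fruw12/frucham5*, adjusted p = 0.00797), with a difference of -0.14 (adjusted p = 0.62).

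The same alleles were also compared with CS in dissected CNS on 3 arrays, all with the mutant in Cy3, so that dye and genotype cannot be told apart there and no test was made. CNS RNA was also amplified, whereas head RNA was labelled directly. The medians over the 75 genes on the lower side were -0.17, -0.33 and -0.34, over 48 to 51 probes, where the arrays' own medians were -0.032 to -0.054. In heads they were -0.49, -0.57, -0.40 and -0.39, over the 30 probes tested there. The CNS and head medians therefore rest on different sets of probes, here and for the next 75 genes. The next 75 genes gave -0.11, -0.14 and -0.09 in CNS and -0.01 to 0.06 in heads. *Wdr37* itself was at 0.17, 0.02 and -0.04 in CNS, unlike in heads. *CG31122*, at 0.32, 0.11 and 0.08, and *CG7675*, at 0.24, 0.45 and 0.67, were not low there either, while *Dlc90F* was at -0.36, -0.69 and -0.65. The *fruw12/frucham5* CNS arrays all carried the mutant in Cy5. Over the first 75 genes on the lower side their medians were 0.12, 0.11 and 0.16, where the arrays' own medians were 0.03 to 0.039. The part of dye in the CNS values was not tested.

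The highest ratios over the whole array reached a 50.3-fold difference. *Ugt35B1*, a UDP-glycosyltransferase, an enzyme family that conjugates sugars to foreign compounds, was at 5.63, 5.55, 6.01 and 5.42 (mean 5.65, SE 0.118, 50.3-fold, adjusted p = 3.81e-07). *Acbp2*, which binds acyl-coenzyme A, was at 4.60, 5.84, 3.46 and 4.36 (mean 4.57, SE 0.316, 23.7-fold, adjusted p = 0.000238). *MtnB*, a metallothionein that binds copper and cadmium, was at 3.76, 4.59, 3.42 and 4.06 (mean 3.96, SE 0.176, 15.5-fold, adjusted p = 3.63e-05). These means were the 3 highest among probes with a symbol, and of the 3 genes *Ugt35B1* varied least between arrays. *Culd*, which takes part in the turnover of rhodopsin in photoreceptors, followed at 3.24, and *Cpr72Ec*, a cuticle protein, at 3.06. *atilla*, known as a marker of lamellocytes, blood cells of the larva, was at 2.89. *Cyp6a2*, a cytochrome P450 tied to insecticide resistance, was at 2.84, and the glutathione S-transferases *GstE6* and *GstE8* were at 2.77 and 2.00. *Fbp1*, a receptor for larval storage protein made in the fat body, was at 2.18. The others among the 15 highest, *CG31775*, *CG16898*, *CG7829*, *CG12766* and *CG11893*, lay between 2.12 and 2.93.

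The lowest ratios were smaller in size than the highest. *CG5391* was at -2.27, -3.26, -3.17 and -2.52 (mean -2.81, SE 0.174, 6.99-fold lower, adjusted p = 0.000145). *Drsl6*, a relative of the antifungal peptide drosomycin, was at -1.89, -3.37, -2.64 and -1.34 (mean -2.31, SE 0.287, adjusted p = 0.00296). *Hml*, hemolectin, a clotting protein of haemocytes, had 3 values, -2.76, -2.38 and -1.32 (mean -2.15, SE 0.257, adjusted p = 0.00387). All arrays of these genes were below -1.3, but they differed widely from each other. *glob1*, a globin, was at -2.14, *CG11368* at -2.06 and *CG6191* at -2.03. *Ppn*, papilin, a matrix protein that haemocytes secrete, was at -1.79. *bw*, an ABC transporter for red eye pigment, was at -1.32, -1.20, -2.29 and -2.33 on one probe (mean -1.79), with the 2 dye orientations apart, and at -0.35 on another, which was not called (adjusted p = 0.184). *Prx6c*, a peroxiredoxin, was at -1.68, *stai*, the microtubule regulator stathmin, at -1.59, *mRpL37*, a mitochondrial ribosomal protein, at -1.57, and *NimC4*, a receptor for dying cells, at -1.53 over 3 arrays of which 1 was at -2.88. *CG7714*, near *fru*, and *CG11370* were at -1.73 and -1.63.

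**Figure D2:**
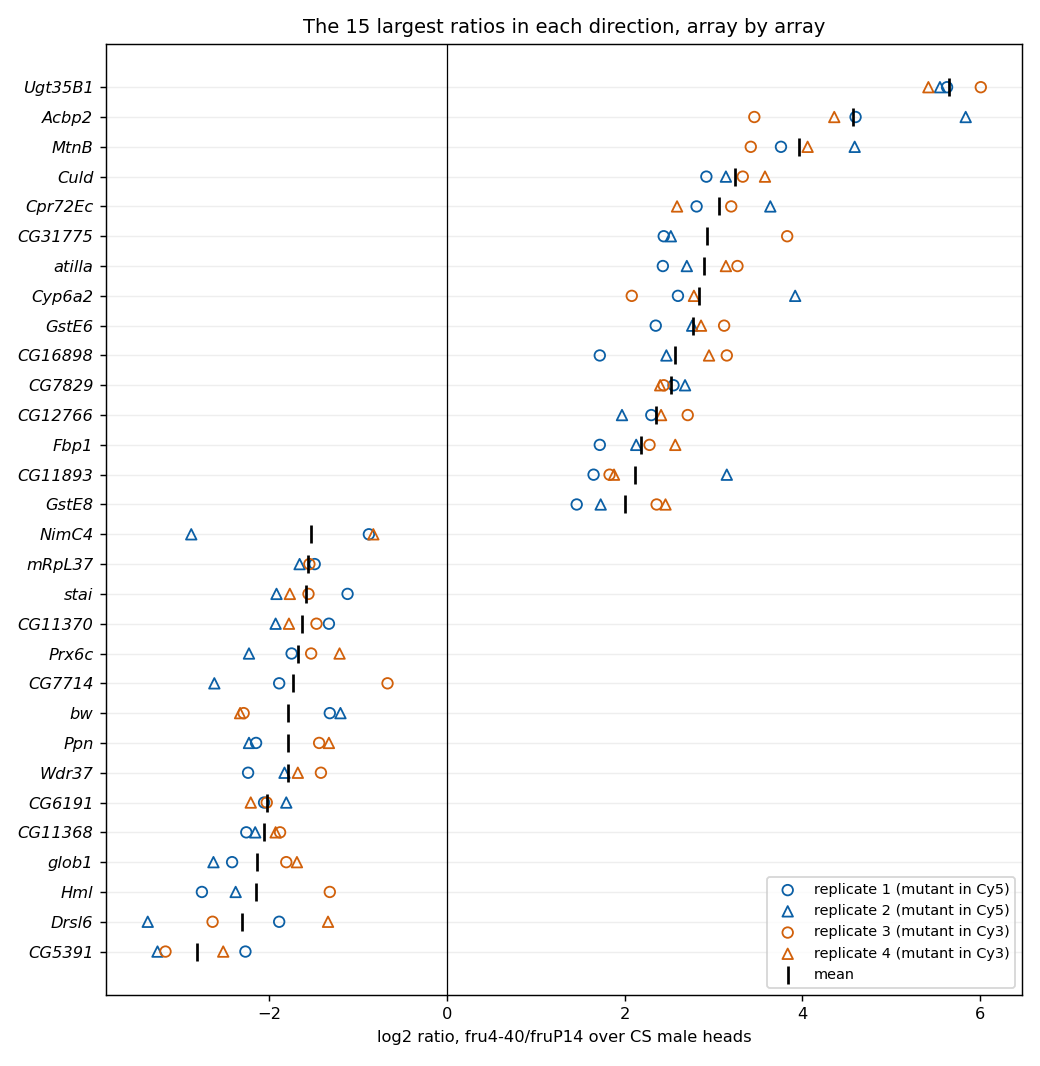
Log2 ratio of *fru4-40/fruP14* over CS male heads (x axis) on each array (symbols; colour gives the dye of the mutant) and its mean (bar) for the 15 highest and 15 lowest named probes among those called with the same sign on every array. The genes run from *CG5391*, mean -2.81, to *Ugt35B1*, mean 5.65.

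Many of the high ratios were also found in other mutants set against CS. *tra* and *dsxD* XX flies and *dsx* null XX flies had been compared with CS females and *dsx* null XY flies with CS males, on 4 arrays each. Their genotypes are *tra1/Df(3L)st-j7*, *dsxD*, *Sb/dsxm+r15* and, for both *dsx* nulls, *dsxd+r3/dsxm+r15*, and the XX flies also carry *y* and *w* with a *ubi-gfp* transgene marked by *w+*. *Ugt35B1* was at 3.81, 3.59, 4.43 and 3.76 in these, in that order and as mutant over CS. *Acbp2* was at 3.63, 4.02, 5.93 and 5.56, and *Culd* at 3.60, 3.74, 4.81 and 4.88. *Cpr72Ec* ranged from 2.63 to 3.91, *CG31775* from 2.37 to 4.97, *GstE6* from 2.42 to 4.21 and *Cyp6a2* from 1.97 to 4.69. Of the 15 highest probes, 14 had a value in all 4 of these comparisons, and 9 of them were above 1 in every one. Of the 15 lowest, 14 had such values, 9 were below 0 in every one, and 3 were below -1: *CG6191* (-2.41 to -1.90), *glob1* (-2.39 to -1.41) and *mRpL37* (-1.58 to -1.25). Whether CS samples were shared between these comparisons is not stated, so no measure of likeness is given.

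*fru4-40/fruP14* was therefore also tested against the average of these 4 mutant stocks, each relative to CS, a test added after the data were seen. It took all arrays as independent, which does not hold if CS samples were shared. The XX flies were set against CS females, whereas the *fru* arrays were of males. Sex and effects of *tra* and *dsx* therefore enter the difference and cannot be told apart in it. The test covered 6178 probes, of which 352 were higher in *fru4-40/fruP14* (5.7%) and 365 lower (5.91%), 11.6% in all. Without replicate 1, 2 or 3 the total was 442, 289 or 335. *CG11368* gave the lowest difference among called probes with a symbol, -2.27 (adjusted p = 7.8e-07), where its ratio in the other stocks was -0.14 to 0.58. *Wdr37* followed among the genes described so far, at -1.92 (adjusted p = 4.47e-07, other stocks -0.06 to 0.30), and *fru* was at -1.29 (adjusted p = 1.02e-05). *ry*, xanthine dehydrogenase, needed for red eye pigment, was at -1.39 (adjusted p = 2.19e-05), and *Obp56h*, an odorant-binding protein, at -1.19 (adjusted p = 0.00146). On the other side, *Ugt35B1* was at 1.76 (adjusted p = 0.00259), *cas*, a zinc finger factor of neuroblasts, at 1.74, *CROT*, a carnitine acyltransferase, at 1.46, and *CG10126* at 1.34. *CG7829* and *CG12766* were at 1.30 each. *MtnB* could not be tested in this way, and it was at -0.38, 0.03 and 0.24 in the 3 other stocks that had a value.

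**Figure D3:**
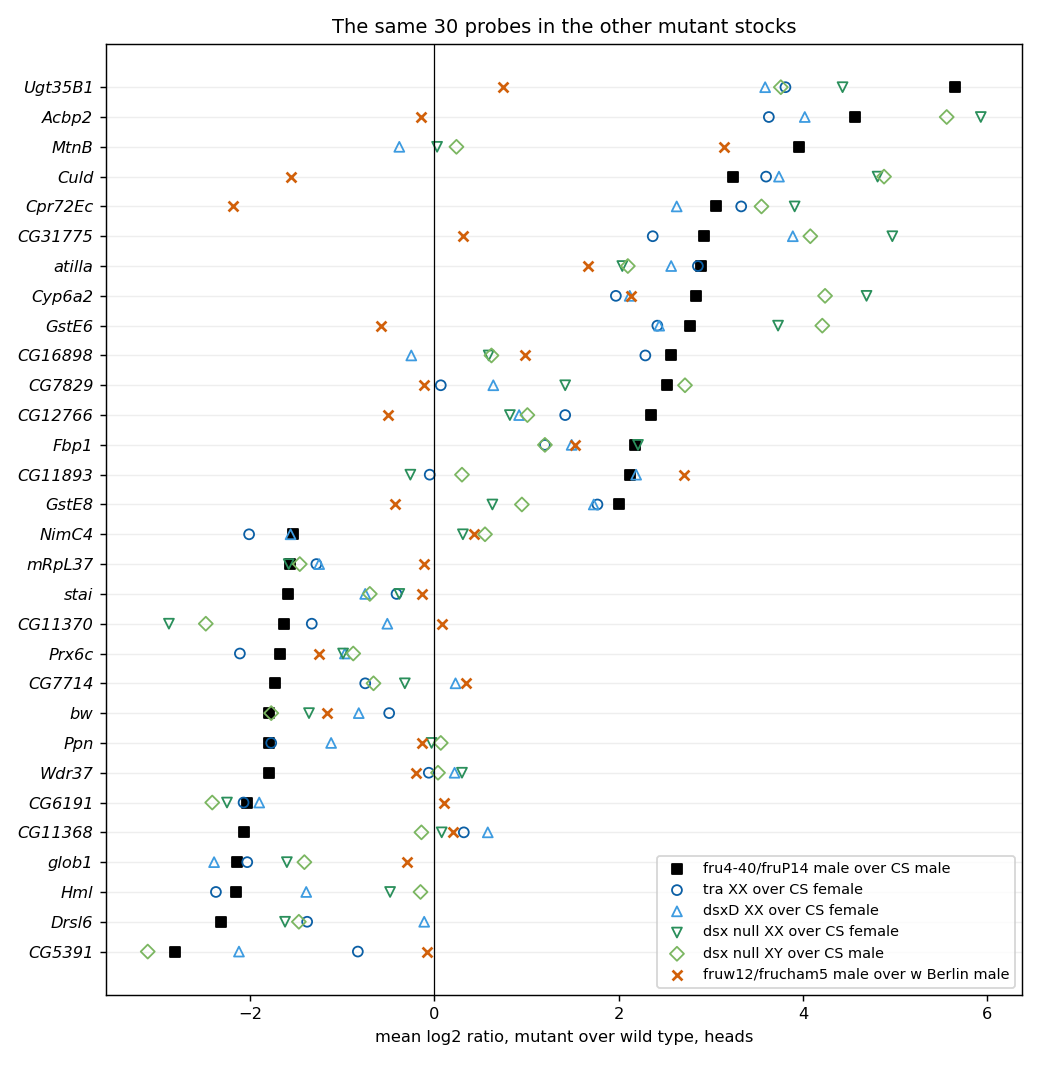
Mean log2 ratio of mutant over wild type in heads (x axis) of the 30 probes with the largest ratios in *fru4-40/fruP14* (black squares), and in *tra*, *dsxD*, *dsx* null XX and *dsx* null XY flies against CS and in *fruw12/frucham5* males against *w* Berlin (open symbols and crosses). *Acbp2*, *Culd* and *Cpr72Ec* lie above 2 in all comparisons with CS, and *MtnB*, with no value in *tra*, lies above 2 in both *fru* combinations and below 1 in the *dsx* mutants.

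Tested against the second *fru* combination, 1633 of 6821 probes differed (23.9%), 815 of them higher in *fru4-40/fruP14* and 818 lower. Leaving out replicate 3 or, of *fruw12/frucham5*, replicate 8 lowered the total to 954 or 1052. *Cpr72Ec* was at -2.18 in *fruw12/frucham5* (difference 5.24, SE 0.225, adjusted p = 1.51e-07), *Culd* at -1.56 (difference 4.81) and *Ugt35B1* at 0.74 (difference 4.91). *Wnt6*, a signalling ligand, was at 0.83, 1.41, 1.32 and 0.90 here (mean 1.12) and at -1.96 there. *GstE6* was at -0.58 there, and the difference was 3.35. In the other direction, *CG31205* was at -0.11 here and 4.78 there, *GstD3*, a glutathione S-transferase, at 0.49 and 4.68, and *CG15422* at -0.04 and 3.39. *Obp56h* was at -1.34, -1.54, -0.84 and -0.78 here (mean -1.13, SE 0.145, adjusted p = 0.00331) and at 1.91 there, with a difference of -3.03 (adjusted p = 0.000181). *Lcp65Ac*, a larval cuticle protein, was at -1.43 here and 0.94 there.

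Of the calls, 402 were shared by both allele combinations, 29.5% of those of *fru4-40/fruP14* that could be tested in the other and 32.9% of those of *fruw12/frucham5*, where 17% and 20.2% of all tested probes were called in the one and the other. In 206 the direction was the same, higher for 130 and lower for 76, and in 196 it was opposite, *Cpr72Ec*, *Culd*, *Wnt6* and *Obp56h* above among them. Of those with the same direction, *MtnB* was at 3.14 in *fruw12/frucham5* (adjusted p = 0.00186), and its difference of 0.81 was not called (adjusted p = 0.282). *Cyp6a2* was at 2.13, *CG11893* at 2.71, *atilla* at 1.67, *Prx6c* at -1.25 and *bw* at -1.16 there. *Obp99b*, an odorant-binding protein that the fat body also secretes, was at 0.99, 1.01, 1.53 and 1.88 here (mean 1.35, SE 0.16, adjusted p = 0.0024) and at 1.36 there.

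**Figure D4:**
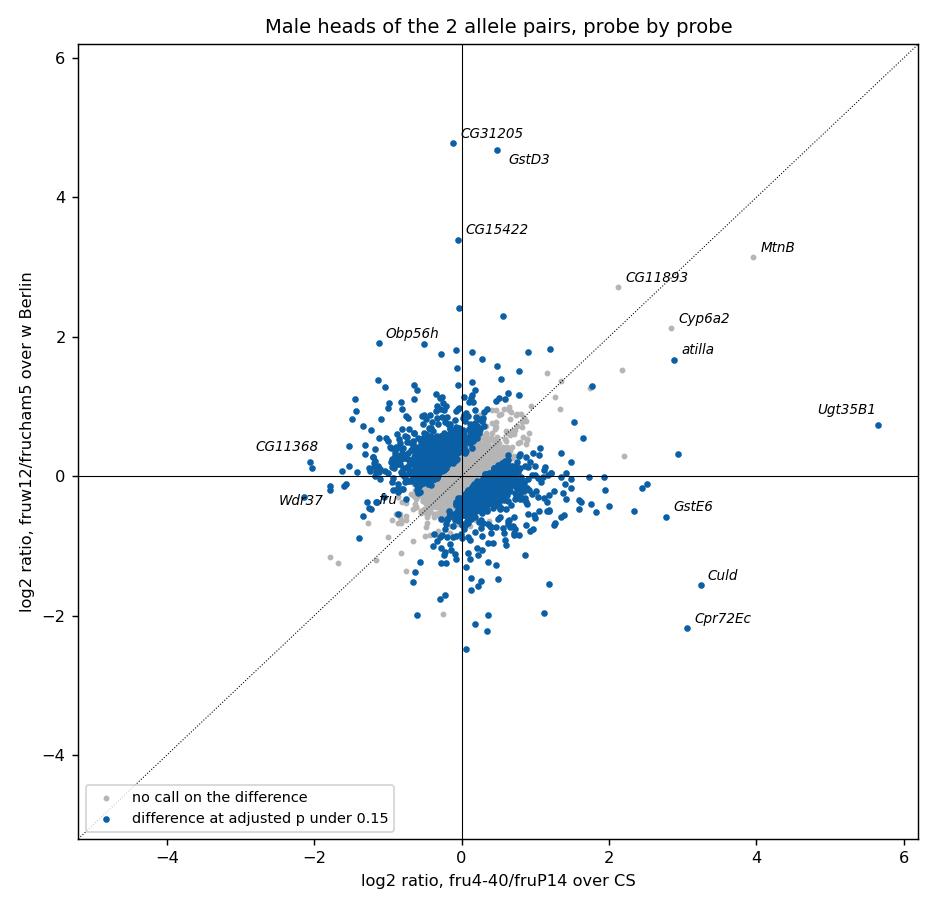
Each point is a probe tested in both allele combinations: log2 ratio of *fru4-40/fruP14* over CS (x axis) against that of *fruw12/frucham5* over *w* Berlin (y axis) in male heads, blue where the difference had an adjusted p under 0.15. *MtnB* and *CG11893* lie near the diagonal, *Ugt35B1*, *Culd* and *Cpr72Ec* far to the right of it, and *GstD3* and *CG31205* above 4 beside the vertical axis.

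Genes for ion channels and neurotransmitter receptors were lower. Of 46 tested probes, 20 were called lower (43.5%, against 10.5% of all probes) and 1 higher, and their median was -0.35 where that of all probes was 0.01. The 4 array medians were -0.07, -0.21, -0.41 and -0.36, lower with the mutant in Cy3 than in Cy5, and 7 or 11 probes were called lower without replicate 3 or 4. *Ca-alpha1T*, a T-type calcium channel, was at -0.45, -0.87, -0.58 and -0.73 (mean -0.66, SE 0.105, adjusted p = 0.00824). *nAChRbeta3*, an acetylcholine receptor subunit, was at -0.68, *5-HT2B*, a serotonin receptor, at -0.65, *Elk* and *Shab*, potassium channels, at -0.64 and -0.46, and *para*, the voltage-gated sodium channel, at -0.42. A probe of *5-HT2A*, another serotonin receptor, was the one called higher, at 0.34 (SE 0.0943, adjusted p = 0.0614), while its second probe, at 0.23, was not called (adjusted p = 0.304). In *fruw12/frucham5* the median of the list was 0.00, with 2 of 47 probes called lower, and 16 of 44 were lower in *fru4-40/fruP14* when the combinations were tested against each other, and 2 higher. In the *tra*, *dsxD*, *dsx* null XX and *dsx* null XY comparisons with CS the median of the same probes was -0.01, -0.05, -0.15 and -0.25. Against the average of these stocks 2 of 42 were lower in *fru4-40/fruP14* (against 5.91% of all probes) and 0 higher.

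The *dpr* genes and their *DIP* partners encode cell surface proteins of the immunoglobulin superfamily that neurons use to match connections, and were listed with the *beat* and *side* families of axon guidance proteins. Of 40 tested probes, 15 were called lower (37.5%, against 10.5% of all probes) and 1 higher, with a median of -0.28. The array medians were -0.07, -0.18, -0.49 and -0.36, and 8, 5 or 5 probes were called lower without replicate 2, 3 or 4. *DIP-beta* was at -0.32, -0.63, -1.39 and -1.23 (mean -0.89, SE 0.178, adjusted p = 0.0205), and again the arrays with the mutant in Cy3 were lower. *side-IV* was at -0.71, *side* at -0.70, *side-II* at -0.65 and *dpr12* at -0.56 and -0.51 on 2 probes. *dpr1*, the founding member, which takes part in salt taste, was at -0.22, -0.29, -0.53 and -0.57 (mean -0.40, SE 0.104, adjusted p = 0.0496), against 0.16 in *fruw12/frucham5*. *DIP-iota* was higher, at 0.79 (SE 0.162, adjusted p = 0.0223). In *fruw12/frucham5* 3 of 40 probes of the list were called lower (8.21% of all probes), with a median of -0.04. The medians of the same probes were -0.06, -0.02, -0.22 and -0.32 in *tra*, *dsxD*, *dsx* null XX and *dsx* null XY against CS. Against the average of these stocks 3 of 36 were lower in *fru4-40/fruP14* (against 5.91% of all probes) and 1 higher.

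Other neuronal and glial lists are read against the same 10.5% of all probes called lower. Among 26 neuronal and synaptic probes, 7 were lower (26.9%) and 1 higher, with a median of -0.21. Their array medians were 0.05, -0.13, -0.33 and -0.45, lower with the mutant in Cy3. The medians of these probes were -0.09, -0.19, -0.20 and -0.30 in *tra*, *dsxD*, *dsx* null XX and *dsx* null XY against CS. Against the average of these stocks 0 of 25 were lower in *fru4-40/fruP14* (against 5.91% of all probes) and 1 higher. In *fruw12/frucham5* 4 of 28 were lower (against 8.21% of all probes) and 3 higher. *Vmat*, the vesicular transporter of monoamines, was at -0.56 and -0.36 on 2 probes. *brp* and *nSyb*, markers of synapses in all neurons, were called lower at -0.32 (adjusted p = 0.125) and -0.26 (adjusted p = 0.132), but a second *nSyb* probe, at -0.27, was not (adjusted p = 0.255). *Syn*, synapsin, was at -0.08, -1.21 and -1.06 on 3 arrays (adjusted p = 0.0735), apart by dye. Of 22 neuropeptide probes, 6 were lower (27.3%) and 0 higher: *Mip*, myoinhibiting peptide, at -0.72 (SE 0.109, adjusted p = 0.00689), *Crz*, corazonin, at -0.50, *Ms*, myosuppressin, at -0.46, *Nplp2* at -0.40, *Dh31*, diuretic hormone, at -0.38 and *NPF*, the feeding and mating peptide neuropeptide F, at -0.32. Without replicate 2 or 3, 3 or 2 of the neuropeptide probes were called. In *fruw12/frucham5* 9 of 25 neuropeptide probes were lower (against 8.21% of all probes), *NPF* at -0.42 and *Dh31* at -0.54 among them. The neuropeptide medians in *tra*, *dsxD*, *dsx* null XX and *dsx* null XY against CS were -0.16, -0.06, -0.30 and -0.31. Against the average of these stocks 2 of 22 were lower in *fru4-40/fruP14* (against 5.91% of all probes) and 1 higher. Of 16 glial probes 5 were lower (31.2%), 2 of them those of *repo* described above, with *axo* at -0.70, *drpr*, the engulfment receptor, at -0.36 and *alrm* at -0.44. The glial median was -0.09, and between -0.04 and 0.13 in the *tra* and *dsx* mutants against CS. Against the average of these stocks 3 of 16 were lower in *fru4-40/fruP14* (against 5.91% of all probes) and 2 higher. In *fruw12/frucham5* 2 of 17 were lower (against 8.21% of all probes) and 3 higher. Among 33 probes of BTB factors other than *fru*, 8 were lower (24.2%) and 0 higher. Of these, 5 were among the 15 tested probes of *mod(mdg4)*, a chromatin insulator protein with many isoforms, and lay between -0.63 and -0.26, and *br*, broad, was at -0.38. The BTB median was -0.10, and -0.06, -0.05, -0.10 and -0.21 in *tra*, *dsxD*, *dsx* null XX and *dsx* null XY against CS. Against the average of these stocks 1 of 26 was lower in *fru4-40/fruP14* (against 5.91% of all probes) and 0 higher. In *fruw12/frucham5* 3 of 42 were lower (against 8.21% of all probes) and 3 higher.

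Genes of phototransduction were higher, of which 14 of 29 tested probes were called (48.3%, against 9.74% of all probes) and 2 were lower, with a median of 0.27. The array medians were 0.24, 0.20, 0.39 and 0.40. *chp*, chaoptin, an adhesion protein of photoreceptor membranes, was at 1.09, 1.01, 1.82 and 1.78 (mean 1.42, SE 0.16, adjusted p = 0.00203). *trp*, the light-gated calcium channel, was at 1.24, 1.09, 1.21 and 0.98 (mean 1.13, SE 0.0958, adjusted p = 0.000554), and its relative *trpl* at 0.58, 1.45, 1.58 and 1.49 (mean 1.27, SE 0.17, adjusted p = 0.00387). Every array of these genes was above 0.5. *ninaG*, an enzyme of chromophore synthesis, was at 1.35, *inaC*, the eye protein kinase C, at 1.21, *Cds* at 0.76 and *inaD*, the scaffold of the signalling complex, at 0.67. The 2 called lower were *laza*, a lipid phosphatase, at -0.38 and *Hdc*, which makes histamine, the photoreceptor transmitter, at -0.31. In *fruw12/frucham5* 3 of 35 were higher (8.76% of all probes) and 5 lower, with a median of -0.05. In the 4 other comparisons with CS the medians were 0.69, 0.46, 0.83 and 0.63, above that of *fru4-40/fruP14*. Against the average of these stocks 10 of 29 probes were lower in *fru4-40/fruP14* (against 5.91% of all probes) and 0 higher.

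Glutathione S-transferases, which conjugate glutathione to toxic compounds, were higher in 14 of 27 tested probes (51.9%, against 9.74% of all probes) and lower in 0, with a median of 0.43 and array medians of 0.13, 0.24, 0.54 and 0.50, and 8 were called without replicate 3. Beside *GstE6* and *GstE8*, *GstE1* was at 1.51, 1.68 and 2.11 on 3 arrays (mean 1.77), *gfzf* at 0.98, 1.06, 1.18 and 1.28 (mean 1.12), *GstO1* at 1.05 and *GstO2* at 0.52. In *fruw12/frucham5* 5 of 36 were higher (8.76% of all probes) and 6 lower, with a median of -0.08. The medians of the same probes were 0.07, 0.31, 0.50 and 0.53 in *tra*, *dsxD*, *dsx* null XX and *dsx* null XY against CS. Against the average of these stocks 3 of 25 were higher in *fru4-40/fruP14* (against 5.7% of all probes) and 1 lower. Of 46 cytochrome P450 probes 10 were higher (21.7%, against 9.74% of all probes) and 5 lower (10.9%, against 10.5%), with a median of 0.00. *Cyp309a1* was at 1.11 and *Cyp6a20*, tied to aggression in males, at 0.50, 1.44, 1.43 and 1.28 (mean 1.16, SE 0.164, adjusted p = 0.00502), and *Cyp6g1*, a detoxification enzyme, at -0.82. *Cyp6a20* was also at 1.49 in *fruw12/frucham5* and at 0.87 to 1.35 in the *tra* and *dsx* mutants. *Cyp309a1* ranged from 0.07 to 1.86 in those mutants. In *fruw12/frucham5* 6 of 65 P450 probes were higher (8.76% of all probes) and 16 lower (8.21%). Against the average of the other stocks 1 of 35 was higher in *fru4-40/fruP14* (against 5.7% of all probes) and 4 lower (against 5.91%).

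Haemocyte and matrix genes were lower in 7 of 13 tested probes (53.8%, against 10.5% of all probes) and higher in 2 (9.74% of all probes were), with a median of -0.36. After *Hml*, *Ppn* and *NimC4*, these were *Col4a1* and *vkg*, the subunits of collagen IV, at -1.14, -1.24, -0.82 and -0.61 (mean -0.95, SE 0.126, adjusted p = 0.00386) and at -0.59, *Pxn*, peroxidasin, at -0.64, and *drpr*. Without replicate 1 or 2, 4 or 3 of them were called, and 4 where all 4 values were required. *Tig*, tiggrin, was at 0.55 and *NimB2* at 0.56, both called higher. In *fruw12/frucham5* 2 of 14 were lower (8.21% of all probes). The medians of the same probes were -0.49, -0.25, 0.14 and 0.07 in *tra*, *dsxD*, *dsx* null XX and *dsx* null XY against CS. Against the average of these stocks 4 of 12 were lower in *fru4-40/fruP14* (against 5.91% of all probes) and 0 higher. *Hml* was also low in *tra* (-2.37) and *dsxD* XX heads (-1.39), and less so in the *dsx* nulls (-0.48 and -0.15).

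**Figure D5:**
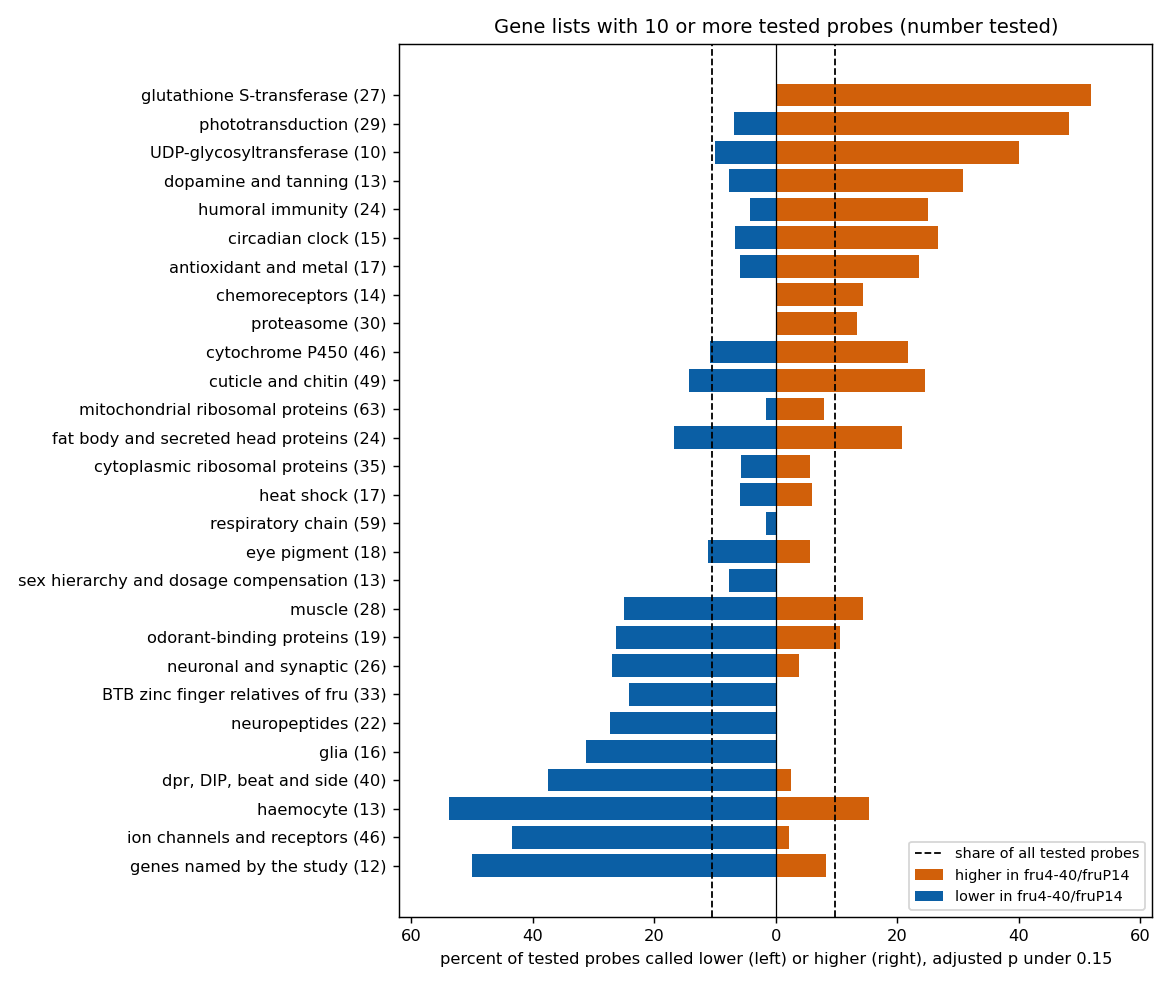
Percent of the tested probes of each gene list (x axis) called higher (right) or lower (left) in *fru4-40/fruP14* male heads at an adjusted p under 0.15, with the number tested in parentheses; broken lines mark the shares of all probes, 9.74% higher and 10.5% lower. Glutathione S-transferases and phototransduction genes stand at one end, ion channels, haemocyte genes and the *dpr* and *beat* families at the other.

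A list of genes that the study names gave 12 tested probes, with a median of -0.36. Called lower were 6 (50.0%, against 10.5% of all probes), that of *fru* itself among them, and called higher 1 (8.3%, against 9.74%). The list does not hold every gene the study names. *TotC*, at 1.83 and called higher, and *dpr20*, at -0.43 and called lower, are among those left out. The study names some of the listed genes from its arrays, these 4 included, and others from earlier work, so the count is a description. *Cyp4d21*, sex-specific enzyme 1, expressed in male fat body, was at -0.72, -0.86, -0.57 and -0.37 (mean -0.63, SE 0.11, adjusted p = 0.0119), and at 0.08 in *fruw12/frucham5*. *sxe2*, a predicted lipase that is likewise male-biased, was at -0.65, -0.86, -0.31 and -0.38 (mean -0.55, SE 0.118, adjusted p = 0.0266), and at -0.49 in *fruw12/frucham5*. Both were lower on every array. *Rdl*, a GABA receptor subunit, was at -0.40, -0.40 and -0.38 for one probe (adjusted p = 0.0701), and at 0.08, -0.07, -0.95 and -1.06 for another (adjusted p = 0.174), apart by dye. *Drs*, drosomycin, was at -0.17, 1.25, 2.18 and 2.41 (mean 1.42, SE 0.372, adjusted p = 0.0515). *fit*, a female-biased gene of the fat body, was at -0.69, 0.74 and 1.12 and *Cpn*, a calcium-binding protein of photoreceptors, at -0.15, neither called. *tim*, timeless, was at 0.16 and 0.06 on 2 probes, neither called. Of 15 clock probes 4 were called higher (26.7%, against 9.74% of all probes) and 1 lower (6.7%, against 10.5%). These were *Pdp1* at 1.76, 1.63, 0.76 and 0.57 (mean 1.18, SE 0.205, adjusted p = 0.0119), *vri* at 0.61, *cyc* at 0.39 (adjusted p = 0.119), *cry*, the blue-light receptor, at 0.32 (adjusted p = 0.111) and *Pdfr*, the receptor of the clock neuropeptide, at -0.87. In *tra*, *dsxD*, *dsx* null XX and *dsx* null XY against CS *Pdp1* was at 1.01, 1.25, 0.60 and 0.61. The clock median was 0.11, and 0.24, 0.10, 0.05 and 0.15 in these stocks. Against their average 1 of 15 clock probes was higher in *fru4-40/fruP14* (against 5.7% of all probes) and 1 lower (against 5.91%). In *fruw12/frucham5* 3 of 16 were higher (against 8.76% of all probes) and 1 lower (against 8.21%). Of 13 probes of the sex hierarchy and dosage compensation, *fru* was the one called (7.7% lower, against 10.5% of all probes).

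The next lists are read against 9.74% of all probes called higher and 10.5% lower. Of 59 respiratory chain probes 1 was called lower (1.7%) and 0 higher, and of 35 cytoplasmic ribosomal proteins 2 in each direction (5.7%). Among 63 mitochondrial ribosomal proteins 5 were higher (7.9%) and 1 lower (1.6%). Of 30 proteasome probes 4 were higher (13.3%) and 0 lower, with 2 probes of *Prosalpha1*, a core subunit, at 1.05 and 0.92. Calls were spread over the chromosomes: 7.1 to 15.3% of the tested probes of an arm were higher and 5.1 to 11.4% lower, and on 3R, the arm of *fru*, 150 of 1489 were higher and 170 lower (84, 73 or 108 lower without replicate 2, 3 or 4). Beyond 400 genes from *fru*, 9.9% of 1130 probes on 3R were lower. Of 1092 tested probes with no chromosome, 172 were lower (15.8%).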

How the data were processed

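The authors made the log2 ratios before they were deposited: they removed poor spots by eye, kept spots with over 75% of pixels above background and normalised by lowess (tool versions are not given in the sources used here). The values are already turned for dye, and nothing was normalised again. A probe without a value on an array may have been dim there.

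The mean log2 ratio of probes with 3 or more values was tested against 0 with limma 3.58.1 in R 4.3.3 (two-sided moderated test, Benjamini-Hochberg adjustment over all tested probes). Errors are the moderated SE, and the number of arrays limits the precision. Differences between groups were tested in limma over the arrays of both. Symbols came from the platform annotation, updated through the RefSeq gene table: 12913 probes have 1 symbol and 3407 are unnamed here. Probes of 1 gene are given separately.

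The genes named are *fru*, those of a list drawn from genes the study names, and the largest differences between combinations. Also named are genes near *fru* (the 10 on each side and the extremes of low bins). To these come the 15 largest ratios in each direction with 1 sign on every array, and up to 5 members of each list with the smallest p. Other members were picked after their values were seen, as were those named in the test against the other stocks. The allele combination, the 33 gene lists and the tests were chosen with earlier results of these data known. On simulated data, 179 of 200 shifts of 0.5 and 200 of 200 shifts of 1 (log2) were recovered among 7228 probes of this comparison, and 14.3% of calls were false. The simulated errors were normal and independent between arrays, whereas the real arrays were more alike within a dye orientation. These rates therefore need not hold for the real data.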

Additional observations from a re-analysis of the deposited data

Results flagged for a closer look

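In 6 of the 117 named probes with 4 values, 1 array stood apart from the other three by Dixon's criterion, which chance meets in about 1 of 20 groups. These arrays were replicate 3 for a probe of *repo* (-0.89), replicate 2 for *CG11893* (3.15) and *ninaG* (0.72), replicate 1 for *trpl* (0.58) and *Cyp6a20* (0.50), and replicate 4 for *inaD* (0.90).

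The ratio of *fru4-40/fruP14* over CS differed from that of *fruw12/frucham5* over *w* Berlin, in limma's test of the difference at an adjusted p under 0.15, for 96 of 149 named probes tested. Each value below is that difference on the log2 scale, and since stocks and controls differ as well as alleles, these cannot be told apart in it.

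Beside *fru* (-0.75), the neighbours on its lower side were lower in *fru4-40/fruP14*: *Wdr37* by a difference of -1.59, *Ada2a* of -1.49, *CG7675* of -1.40, *CG31122* of -1.18, 2 probes of *Rim* of -1.04 and -0.90, 2 of *repo* of -0.84 and -0.59, *CG7685* of -0.81, *cpo* of -0.75, *PKD* of -0.66, *Dlc90F* of -0.61, *Vha100-2* of -0.57, *Cbp20* of -0.49 and *CG7183* of -0.39. On the upper side the differences were positive, 1.59 for *CG7695*, 1.18 for *ChT*, 1.02 for *CG31224*, 0.91 for *Gos28* and 0.88 for *CG31229*, but *unc79* (-1.89) and *CG5217* (-1.67), farther out, were lower.

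Among the largest ratios, *Cpr72Ec* (5.24), *Ugt35B1* (4.91), *Culd* (4.81), *GstE6* (3.35), *Wnt6* (3.08), *CG12766* (2.84), *CG7829* (2.63), *CG31775* (2.62), *GstE8* (2.43), *cas* (1.67), *atilla* (1.22) and *CG10126* (1.17) were higher in *fru4-40/fruP14*. Lower were *CG31205* (-4.89), *GstD3* (-4.20), *CG15422* (-3.43), *Obp56h* (-3.03), *Lcp65Ac* (-2.37), *CG11368* (-2.26), *CG6191* (-2.14), *NimC4* (-1.96), *glob1* (-1.84), *CG11370* (-1.70), *Ppn* (-1.65), *stai* (-1.46), *mRpL37* (-1.45) and *ry* (-1.22).

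Of the genes of neurons and glia, *DIP-beta* (-1.31), *5-HT2B* (-1.27), *Ca-alpha1T* (-1.17), *Shab* (-0.93), *axo* (-0.89), *side-IV* (-0.87), a probe of *Rdl* (-0.87), one of *Vmat* (-0.85), both of *dpr12* (-0.83 and -0.81), *side-II* (-0.82), *Syn* (-0.78), *Mip* (-0.64), *dpr1* (-0.56), *para* (-0.49) and *drpr* (-0.46) were lower, as were *mod(mdg4)* (-0.95 and -0.50) and *br* (-0.44). Both probes of *5-HT2A* were higher (0.70 and 0.39).

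In the eye and clock, *trpl* (1.94), *chp* (1.37), *inaC* (1.16), *ninaG* (1.01), *trp* (1.00), *Cds* (0.95), *inaD* (0.79), *Pdp1* (1.17), *vri* (0.79) and *cyc* (0.39) were higher, and *Pdfr* (-1.49) and *Cpn* (-0.83) lower. Also higher were the detoxification enzymes *GstO1* (1.55), *Cyp309a1* (1.43), *gfzf* (1.03), *GstO2* (0.48), *GstE1* (0.47), and *Prosalpha1* (0.74 and 0.72). Of blood cell and fat body genes, *Drs* (1.75), *fit* (1.11), *NimB2* (0.71) and *Tig* (0.63) were higher and *vkg* (-0.92), *Col4a1* (-0.87) and *Cyp4d21* (-0.71) lower.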

How the results depend on the processing

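No paired analysis was possible because the head arrays of the allele combinations carry replicate numbers 1 to 4 and 5 to 8 and share none. Filters of all 4 values or of 2 or more, centring, scaling, robust moderation and 1 fit for both combinations left every count of calls within 1.5 times the one reported, except that 4 in place of 7 haemocyte probes were called lower where all 4 values were required. With a term for dye, 3012 probes were called (1488 higher, 1524 lower), 313 of them lower on 3R, with 36 channel and receptor and 25 *dpr*, *DIP*, *beat* and *side* probes lower. With the methods' t-test after adjustment, 581 were called (326 higher, 255 lower), 66 lower on 3R and 5 at the strict threshold, and 265 in *fruw12/frucham5*. In the lists it called 6 channel, 2 *dpr*, 3 haemocyte and 2 neuropeptide probes lower and 7 phototransduction and 6 glutathione S-transferase probes higher.

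Leaving out each array in turn, with a value required on every array kept of that combination, tested fewer probes. It gave 612 to 1267 calls (302 to 626 higher, 310 to 641 lower), 73 to 131 lower on 3R, 739 to 1147 calls in *fruw12/frucham5*, 954 to 1472 for the difference between the combinations and 289 to 496 against the other stocks. Called lower were 7 to 21 channel, 5 to 16 *dpr*, 3 to 5 haemocyte and 2 to 6 neuropeptide probes, and called higher 8 to 12 glutathione S-transferase probes.

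The median of the 25 nearest genes on the lower side of *fru* was -0.79 with all 4 values required and -0.83 to -0.64 with an array left out. That of the next 25 was -0.29 and -0.47 to -0.25. Genes 51 to 100 were at -0.39 with the mutant in Cy5, at -0.12 with it in Cy3 and at -0.14 without replicate 2, and the next bin at -0.02 with it in Cy3. On the upper side the first 25 genes turned to 0.03 with the mutant in Cy5 and ran from -0.08 to 0.02 with an array left out, and the next 25 were at -0.14 in Cy5 and -0.41 in Cy3. The cause of these shifts was not tested.

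Of 160 named probes tested, 129 were called, and none of the 160 changed direction with a call under any of these settings. The methods' t-test lost the call of 47 and a replicate left out that of 7 to 20, and the term for dye added 9.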
